A study of Mus musculus with 4 samples.

Results

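The comparison set the alveolar type II cells of wild-type (WT) mice carrying a tumor against those of WT mice without one. It rests on 2 of the 4 arrays of the series, 1 array in each group, and the members are all genes on those arrays. In the WT tumor group, Lewis lung carcinoma cells, a mouse lung tumor line, had been placed under the skin, and lungs were taken 2 weeks later. The WT no tumor group received no tumor cells and carried the same wild-type genotype. Both groups were labelled female, the sources used here give neither the age of the mice nor the number pooled on an array, and the cells were sorted by flow cytometry with markers that are not named. The remaining arrays held the same cells from Tlr3-deficient mice with and without the tumor, which lack a sensor of double-stranded RNA. With 1 array a group no difference has a replicate check, no p-value is given, and so small a number of arrays leaves the precision of each value unknown.

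Alveolar type II cells are the cuboidal epithelial cells of the alveolus. They make and recycle surfactant, the lipid and protein film that keeps the air spaces open, they secrete defense proteins and chemokines, and they can give rise to the flat type I cells across which gas is exchanged. A growing tumor elsewhere in the body is known to send signals to the lung before tumor cells arrive there, and recruitment of neutrophils and other myeloid cells is a known feature of such lungs. The comparison asks which genes of sorted type II cells differ in level while the mouse carries a primary tumor.

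Levels are given on 1 scale throughout. A level is the log2 of a gene's processed signal minus the 75th percentile of its array, so that each unit is a doubling, and a difference is the WT tumor level minus the WT no tumor level. Where a gene was well above background on 1 array only, its difference is given as a bound, stated as "at least". The bound takes the dim probe's own level or the lowest level well above background on its array, whichever is higher. Where the own level is higher, as for Wfdc17 and Il1r2, the bound equals the plain difference and is not a strict lower limit. A gene counts as higher or lower at a difference of at least 2-fold. Of 17828 genes well above background on at least 1 array, 985 (5.53%) were higher in WT tumor cells and 283 (1.59%) were lower, with 424 and 110 of these resting on a bound. Higher genes thus made up 77.7% of the calls, against 63.3% with each array centred on its median, which moved the all-gene median to -0.15, and 65.6% with quantile normalization. With normexp background correction, which adds an offset and shrinks differences of dim genes, 455 were higher and 132 lower. Over the 16052 genes well above background on both arrays, 561 (3.49%) were higher and 173 (1.08%) were lower. Most of these differences were small. Between a difference of 1 and 1.5, 381 genes were higher and 130 lower, and at a difference of 3 or more 19 were higher and 2 lower. The median difference of genes measured on both arrays was -0.03, and 45.9% of them were positive.

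Some genes carry the account below, and the 60-base probes that read 3 of them are shown here to fix which transcript each value belongs to. They are the alarmin gene S100a8, the highest of the genes with a symbol measured on both arrays, the granule gene Ltf, the highest neutrophil gene in the quieter part of the array, and the clock repressor Nr1d1. The probes are those printed on the array, all in lower case because no part of them is singled out. Per the array's annotation of the mm9 build they lie at chr3:90473778-90473837 on the plus strand for S100a8, chr9:110942873-110942932 on the plus strand for Ltf and chr11:98630526-98631028 on the minus strand for Nr1d1, where the span exceeds the probe's length.
S100a8: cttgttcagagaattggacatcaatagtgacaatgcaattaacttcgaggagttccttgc
Ltf: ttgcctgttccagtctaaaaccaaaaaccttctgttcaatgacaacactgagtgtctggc
Nr1d1: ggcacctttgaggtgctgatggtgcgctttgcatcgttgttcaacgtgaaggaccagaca

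The WT no tumor array was uneven across its surface, and this bears on every count. Signals at 245 probes are printed 10 times on each array, so that the spread of 1 probe over an array can be read directly. Over the 163 of these probes well above background on both arrays, the pooled SD of replicate spots was 0.11 on the WT tumor array and 0.30 on the WT no tumor array. In columns 1-51 the SD was 0.12 on the WT tumor array and 0.36 on the WT no tumor array, and in columns 52-85 it was 0.08 and 0.11. Blocks of 5 columns by 38 rows were then compared. Over 238 such blocks the local median of the WT difference ran between -0.41 and 0.62, against -0.19 and 0.11 in the Tlr3-deficient pair, and the share of genes higher in a block reached 33.3%, with more than 10% higher in 20 blocks, 13 of them in columns 31-40. No block of the Tlr3-deficient pair passed 10%. The replicate spots place the pattern on the WT no tumor array, where spots of columns 31-35 sat on average 0.20 below their probe's mean and those of columns 41-45 sat 0.22 above it, against deviations of 0.001 and -0.001 on the WT tumor array.

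**Figure D1:**
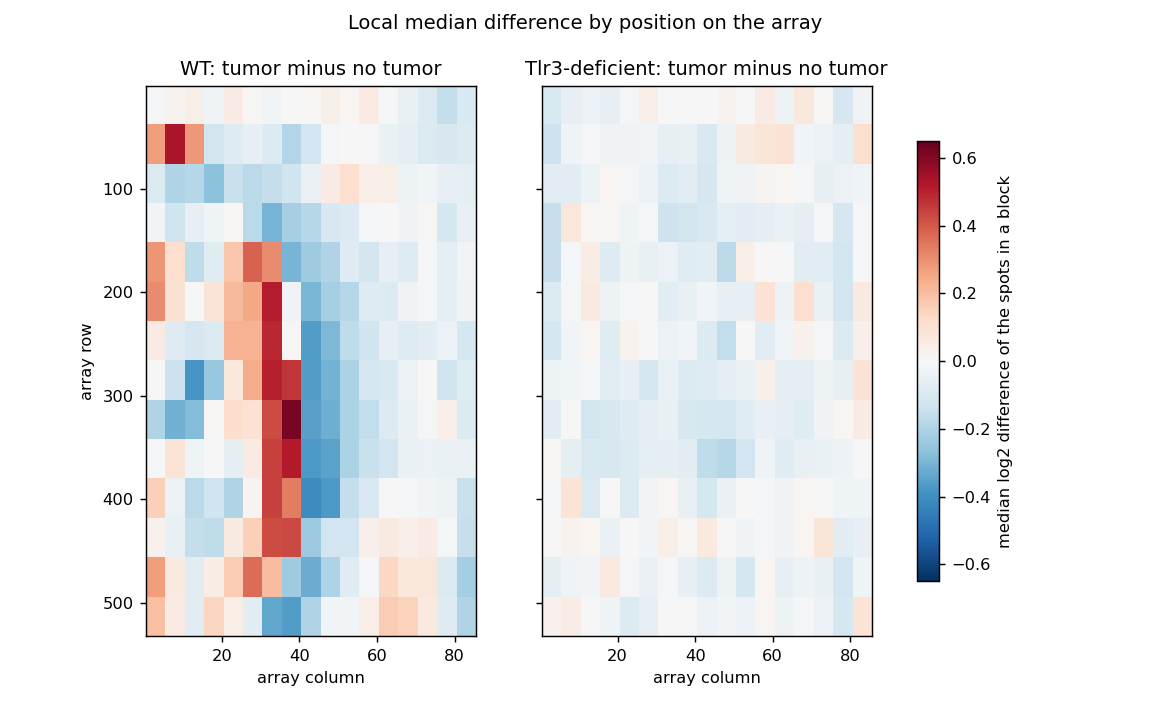
Median log2 difference (tumor minus no tumor) of the spots in blocks of 5 columns by 38 rows, drawn at their place on the array for the WT pair on the left and the Tlr3-deficient pair on the right, with colour giving the difference on 1 scale. The WT pair shows a raised band at columns 31-40 and a lowered band at columns 41-50, with block medians between -0.41 and 0.62, and the Tlr3-deficient pair stays between -0.19 and 0.11.

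Counts followed this pattern. Among the 10500 genes read by a probe in columns 1-51, 740 (7.05%) were higher in WT tumor cells and 177 (1.69%) lower, and among the 7182 genes read in columns 52-85, 239 (3.33%) were higher and 106 (1.48%) lower. Calling a block steady where its local median lay within 0.2 of the median block and its local interquartile range was under 0.5, a rule chosen after the data were seen, 149 blocks were steady and 97 of the 98 blocks in columns 51-85 were among them. Of 11109 genes in steady blocks, 382 (3.44%) were higher and 171 (1.54%) lower, and of 6573 genes in the other blocks 597 (9.08%) were higher and 112 (1.70%) lower. Among 3315 genes with a probe in each part, 91 were higher by their probe in columns 1-51, and 7 of these were at least 2-fold higher by their probe in columns 52-85 too, while 52 were positive there. Of 41 genes lower by the first probe, 9 were at least 2-fold lower by the second and 36 were negative. A gene's place on the array, columns 1-51 or 52-85, is therefore stated beside the genes the results turn on.

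The identity of the sorted cells was checked first. All 19 type II markers on the array were well above background in both groups, and none was higher or lower. Sftpc, which encodes surfactant protein C, had a level of 9.38 in WT tumor cells and 8.93 in WT no tumor cells. Lyz2, a lysozyme gene, stood at 8.60 in WT tumor cells and 8.71 in WT no tumor cells, and Ctsh, a protease that processes surfactant protein precursors, at 8.26 and 8.83. These were the most abundant genes of the list. Over the 19 markers the differences ran between -0.61 for Muc1, a membrane mucin, and 0.55 for Slc27a2, a fatty acid transporter, with a median of -0.11. The median over all genes measured was -0.03.

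Of 16 type I markers, 4 were lower in WT tumor cells and 0 were higher. All 16 were measured on both arrays, all 16 differences were negative, and the median was -0.78, against -0.03 over all genes measured. At 2-fold, 1.08% of all genes measured were lower. Rtkn2, used as a type I marker, had 1.41 in WT tumor cells and 2.96 in WT no tumor cells, 2.92-fold lower, and lay in columns 52-85. Spock2, an extracellular proteoglycan gene, had 0.28 and 1.45, 2.25-fold lower, in the same columns. Hopx, a homeodomain cofactor, was 2.17-fold lower and Ager, the receptor for advanced glycation end products and the best known type I marker, was 2.01-fold lower at 4.58 in WT tumor cells and 5.59 in WT no tumor cells. Both of these lay in columns 1-51 inside the lowered band, and with the local median of their block removed Hopx stood at -0.79 and Ager at -0.68. The type I median was -0.78 in columns 52-85 also. The same probes had a median of -1.11 in the Tlr3-deficient pair. In bulk cells, fewer cells of a type and less RNA per cell cannot be told apart, which holds for this list and for each cell type below.

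Other lung cell types gave smaller medians. Ciliated cell genes had positive differences in all 15 members measured on both arrays, with a median of 0.63, and 1 of them was higher: Ccdc39, an axonemal assembly gene, at -0.16 in WT tumor cells and -1.29 in WT no tumor cells. The remaining member tested, Spag6, a sperm and cilium protein gene, was not well above background in WT tumor cells and was at least 7.64-fold lower there, and it was dim on both Tlr3-deficient arrays. Endothelial genes had a median of -0.41 with 0 of 16 past 2-fold, and fibroblast and pericyte genes -0.38 with 0 of 18. Club cell genes had a median of -0.42. Among club cell genes, Reg3g, an antimicrobial lectin, was 6.32-fold higher at 4.72 in WT tumor cells and 2.06 in WT no tumor cells, while Bpifa1, a secreted airway defense protein, was 2.39-fold lower, both in columns 1-51.

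**Figure D2:**
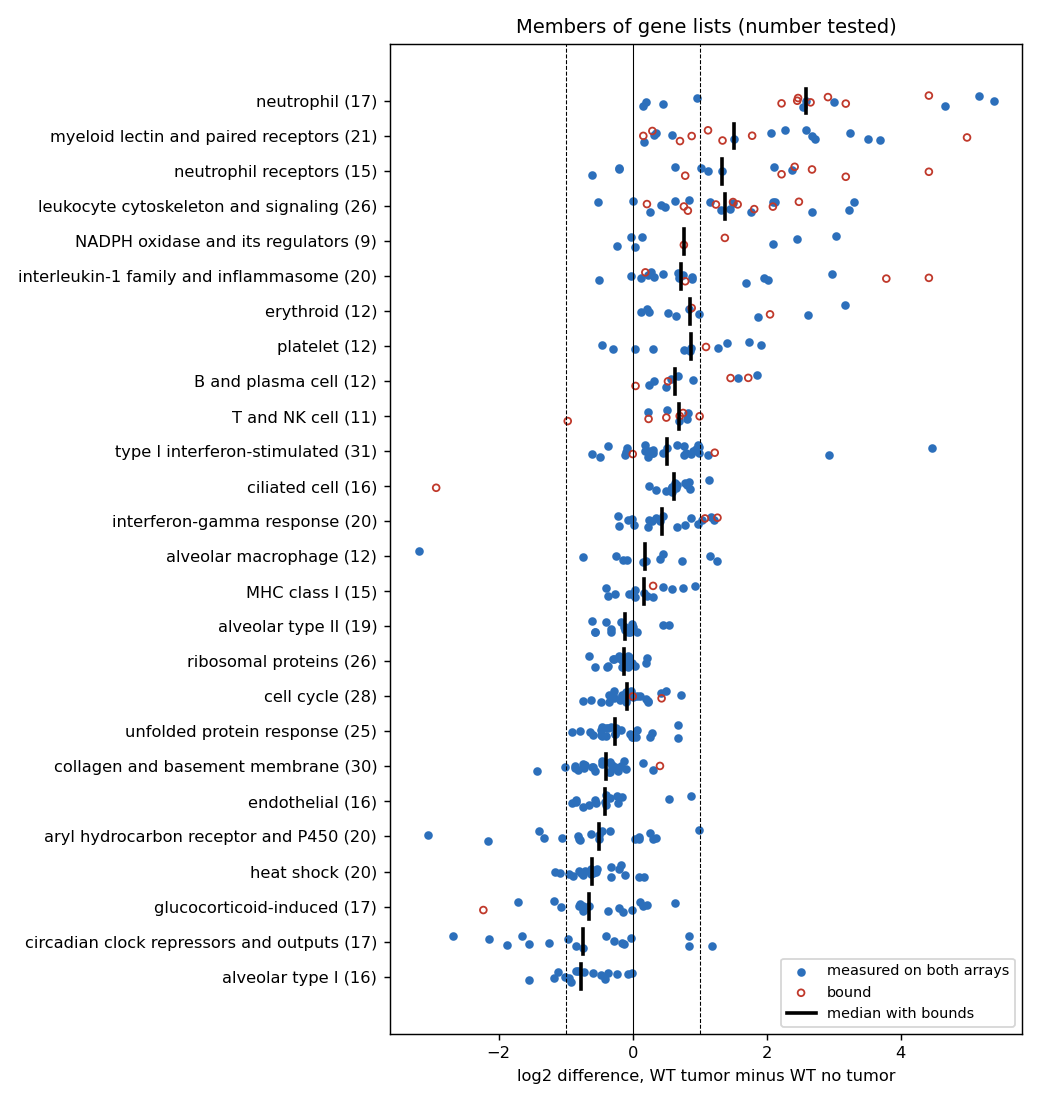
Log2 differences of the members of 26 gene lists, WT tumor minus WT no tumor, 1 point a gene, filled where measured on both arrays and open where only a bound is known, with the median drawn as a bar and 2-fold as dashed lines. Neutrophil and myeloid receptor lists lie mostly to the right of the upper line, type II and ribosomal genes gather near 0, and clock repressors and type I genes lie to the left.

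Neutrophil genes were higher in WT tumor cells by the largest median among the lists examined. Of 18 neutrophil markers on the array, 10 were well above background on both arrays, all 10 were positive and 6 were higher, with a median of 2.56, next to 45.9% positive and 3.49% higher over all genes measured. S100a8, a partner in the calprotectin pair that neutrophils store in their cytoplasm, had a level of 3.98 in WT tumor cells, against -1.41 in WT no tumor cells, and was 41.8-fold higher. Its partner S100a9 had 6.39 in WT tumor cells, against 1.22 in WT no tumor cells, a difference of 5.17. Retnlg, a resistin-like secreted protein of neutrophils, was 25.4-fold higher. These 3 lie in columns 1-51, and with the local median removed the differences were 5.31, 4.83 and 4.62. In columns 52-85, Ltf, the iron-binding lactoferrin of secondary granules, had 3.34 and 0.33 and was 8.05-fold higher. Trem1, an activating receptor, differed by 2.59 there, and Stfa2l1, a stefin protease inhibitor, by 2.54. Other markers of high level in both groups did not pass 2-fold. Lcn2, a siderophore-binding protein that epithelial cells also make, had 5.09 in WT tumor cells and 4.93 in WT no tumor cells, and Hdc, histidine decarboxylase, 5.73 and 5.53. A further 7 markers were well above background in WT tumor cells only, so that they had to come out higher and support nothing by their number: Il1r2, a decoy receptor for interleukin-1, at least 21.4-fold, Csf3r, the receptor of granulocyte colony-stimulating factor, at least 9.06-fold, and Ngp, Mmp8, Mmp9, Camp and Cxcr2 between at least 4.66-fold and at least 7.53-fold. Summed over the list, the linear level was 202 times the array's 75th percentile in WT tumor cells and 81.4 times in WT no tumor cells. The sort used no markers that the sources name, and the part that sorted-in neutrophils had in these values was not tested. S100a8 stayed between 5.24 and 5.52 in the settings tried. In the Tlr3-deficient pair, S100a8 differed by 4.85 and S100a9 by 4.34, next to 5.39 and 5.17 in WT.

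Lists of neutrophil and myeloid function each held higher genes, in shares that differed. Among all genes measured, 45.9% were positive and 3.49% higher. Among myeloid lectin and paired receptor genes, 13 were measured on both arrays, all 13 were positive, 9 were higher and the median was 2.28. A further 8 were well above background in WT tumor cells only. Cd300lf, an inhibitory lipid receptor, was 12.9-fold higher in columns 52-85, and Clec4d, a C-type lectin that senses fungal and mycobacterial sugars, was 9.43-fold higher there. Pirb, an inhibitory receptor for class I molecules, was 11.4-fold higher in columns 1-51. Clec4e, a related lectin, was above background in WT tumor cells only, at least 31.7-fold higher. Tyrobp and Fcer1g, the adaptor chains through which many of these receptors signal, were 6.62-fold and 2.86-fold higher. Of the NADPH oxidase, the enzyme complex that makes the oxidative burst, 3 of 7 genes measured were higher, among them Ncf4 by 5.48-fold and Rac2 by 4.26-fold, while the median of the 7 was 0.14. The membrane subunit Cybb was at least 2.59-fold higher. Among neutrophil receptors 5 of 9 measured were higher, with Fpr1, a receptor for bacterial formyl peptides, differing by 2.38 and Selplg, a selectin ligand, by 2.11. The secondary and tertiary granule list had a median of -0.04 over its 10 members measured on both arrays. The 3 that passed 2-fold were Ltf, Pglyrp1 and Ltb4r1, the last a leukotriene B4 receptor gene that the list includes.

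Genes of the leukocyte cytoskeleton and of leukocyte signaling pointed the same way. Of 17 measured, 16 were positive and 10 were higher, with a median of 1.32. Over all genes measured, 45.9% were positive and 3.49% higher, which is the share to set beside each count here. Coro1a, an actin regulator of leukocytes, had 0.28 and -3.02 in WT tumor and WT no tumor cells, and Cd52, a small leukocyte surface protein, had 1.29 and -1.94, 9.83-fold and 9.35-fold higher, both in columns 1-51. With the local median of the block removed, the difference of Coro1a went from 3.30 to 2.84 and that of Cd52 from 3.22 to 3.44. Another probe of Coro1a gave 2.42. Ptprc, the pan-leukocyte phosphatase CD45, was printed 10 times and gave the best founded value. Its spots had a mean of -0.45 ± 0.06 (SD of 10 spots on 1 array) in WT tumor cells and -3.13 ± 0.17 (SD of 10 spots) in WT no tumor cells, with no overlap, and the difference was 2.73 in columns 52-85 and 2.66 in columns 1-51. Spots of an array measure the array and not the mice. By list, 3 of 8 monocyte and dendritic cell genes measured were higher, 2 of 8 B and plasma cell genes (Ighm by 3.61-fold, Jchain by 2.96-fold) and 0 of 5 T and NK cell genes. Of 12 alveolar macrophage genes, Itgax and Fabp4 were 2.39-fold and 2.23-fold higher and Cd5l was 9.17-fold lower. Cd5l, a secreted scavenger protein of macrophages, was the lowest of all genes measured, at -4.89 in WT tumor cells and -1.69 in WT no tumor cells.

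**Figure D3:**
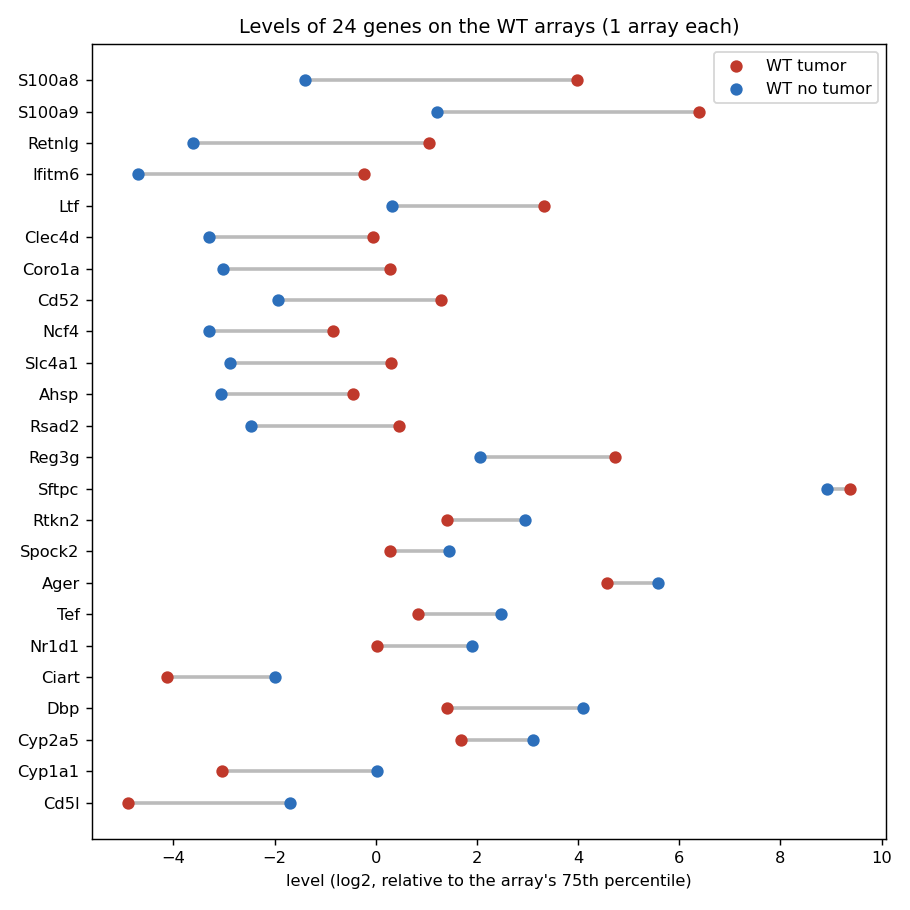
Levels of 24 genes on the WT tumor array (red) and the WT no tumor array (blue), as log2 signal relative to the array's 75th percentile, with a grey bar joining the 2 arrays. S100a9 stands at 6.39 in WT tumor cells and 1.22 in WT no tumor cells, Sftpc at 9.38 and 8.93, and Dbp at 1.42 and 4.10.

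Of 10 red cell genes measured 3 were higher in WT tumor cells, and of 11 platelet genes 4, with 0 lower in either list. Over all genes measured, 3.49% were higher and 1.08% lower. All 10 erythroid genes measured were positive with a median of 0.74. Slc4a1, the anion exchanger of the red cell membrane, had 0.29 and -2.87 in WT tumor and WT no tumor cells. Ahsp, which stabilises free alpha-globin, had -0.45 and -3.06 and was 6.14-fold higher in columns 52-85. The globin genes themselves shifted less, with Hba-a1 at 7.94 and 7.10 and Hbb-bt at 8.69 and 8.04. Platelet genes had a median of 0.86. Gp9, a subunit of the von Willebrand factor receptor, was higher by 3.78-fold and Ppbp, a platelet chemokine, by 3.31-fold. Over the same 10 and 11 genes, the Tlr3-deficient pair had medians of -0.75 for erythroid and -0.93 for platelet genes. The difference between the pairs was not tested.

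Some interleukin-1 genes and chemokines were among those higher. Of 16 interleukin-1 and inflammasome genes measured, 4 were higher, with a median of 0.68. Of 11 neutrophil attractants and growth factors 2 were higher, and of 23 other chemokines and cytokines 2, with medians of 0.66 and 0.40. Over all genes measured, 3.49% were higher. The 13 other chemokines and cytokines above background on at least 1 array and read in columns 52-85 had a median of 0.08. Il1b, the inflammatory cytokine, was printed 10 times and had 1.21 ± 0.11 (SD of 10 spots) in WT tumor cells and -1.77 ± 0.23 (SD of 9 spots) in WT no tumor cells, a difference of 2.98, with 3.09 in columns 52-85 and 2.85 in columns 1-51. Casp4 and Casp1, inflammatory caspases, were 4.04-fold and 3.24-fold higher. Il1rn, the receptor antagonist, differed by 1.97 by its brightest probe, which missed the background flag in WT no tumor cells, and the sign turned under other rules for its probes. Cxcl5, a neutrophil attractant that type II cells are known to make, was above background in WT tumor cells only, with a difference of at least 3.73, in columns 52-85. Ccl20 and Ccl9 were 2.55-fold and 2.58-fold higher, both in columns 1-51. The replicate spots also showed Tnfrsf1b, a receptor of tumor necrosis factor, 1.30 higher without overlap, while Csf1, a macrophage growth factor, differed by 0.92 and Tlr2, a bacterial lipoprotein receptor, by 0.88, also without overlap but short of 2-fold.

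**Figure D4:**
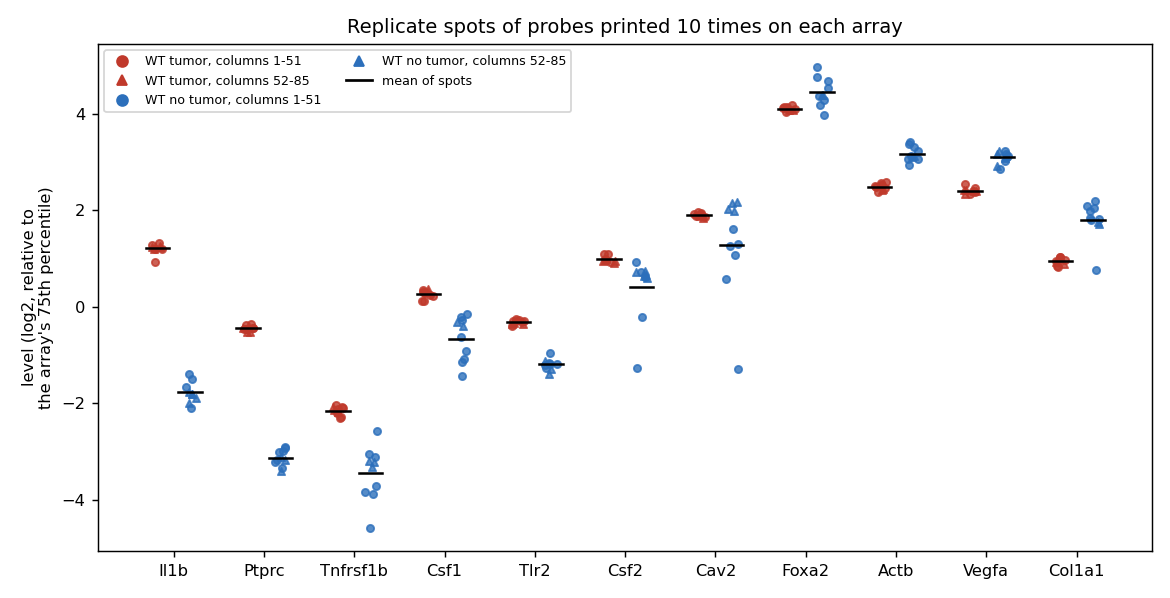
Levels of single spots for 11 probes printed 10 times, WT tumor in red to the left of WT no tumor in blue, with circles for columns 1-51, triangles for columns 52-85 and bars for the mean of the spots. Spots of the WT tumor array lie close together at every gene shown, those of the WT no tumor array scatter widely at Cav2 and Csf2, and Il1b and Ptprc show no overlap between the arrays.

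Cav2, a caveolin gene, shows what the uneven array does to 1 probe. Its 10 spots ran between 1.85 and 1.96 in WT tumor cells and between -1.30 and 2.16 in WT no tumor cells, and the difference was -0.20 in columns 52-85 and 1.16 in columns 1-51. Over the 163 replicated probes, 17 were higher and 21 lower without overlap of spots, and 6 of them passed 2-fold, all upward. Lower probes without overlap included Actb, cytoskeletal actin, by -0.68, Vegfa, the vascular growth factor, by -0.69 and Mt1, a metal-binding protein, by -0.65, none of them 2-fold.

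Of 29 interferon-stimulated genes measured, 3 were higher and 0 lower. Positive differences numbered 23, and the median was 0.51. Over all genes measured, 45.9% were positive and 3.49% higher. Ifitm6, a member of the interferon-induced transmembrane family, was 22.1-fold higher at -0.24 in WT tumor cells and -4.71 in WT no tumor cells, in columns 52-85. Rsad2, the antiviral viperin, was 7.58-fold higher at 0.45 and -2.47, and its probes gave between 1.80 and 2.92. Ifitm1 was 2.17-fold higher. Isg15, a ubiquitin-like modifier and a standard member of the list, differed by 0.99, and Ifit1 and Ifit3, which bind viral RNA, by -0.48 and -0.61. Ifitm6 differed by 4.52 and Rsad2 by -0.30 in the Tlr3-deficient pair. Counting members above background on at least 1 array, the median was 0.27 over the 16 read in columns 52-85 and 0.65 over all 31. Interferon-gamma response genes had 3 of 18 measured that were higher, next to the same 3.49% over all genes, and no MHC class I gene was higher or lower.

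Epithelial defense and fluid transport held few large differences. Of 21 acute phase and epithelial defense genes measured, 3 were higher and 1 lower, and of 17 complement genes 2 and 0. Of 20 ion and fluid transport genes 2 were higher and 1 lower. Over all genes measured, 3.49% were higher and 1.08% lower. Pigr, the receptor that carries antibodies across epithelium, was 3.54-fold higher and Cfb, complement factor B, 3.69-fold higher, both in columns 52-85. Aqp3, a water and glycerol channel, was 4.89-fold higher, while Scnn1g, a subunit of the epithelial sodium channel, was 2.54-fold lower. Slc16a3, a lactate exporter, was 2.96-fold higher, and Areg, an epidermal growth factor receptor ligand, 2.44-fold. None of Scnn1g, Slc16a3 and Areg was read in columns 52-85, and Scnn1g and Areg lay outside the steady blocks. Aqp4 and Hk1 passed 2-fold by their brightest probe only, and the sign turned when probes of columns 52-85 alone were used.

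Of 17 repressors and outputs of the circadian clock, 6 were lower in WT tumor cells and 1 was higher, and 2 of 5 activators were higher. The circadian clock is a feedback loop in which the activators Bmal1 (named Arntl in the table used for names), Clock and Npas2 switch on their own repressors, the Per, Cry and Nr1d genes, together with output genes such as Dbp and Tef. All 17 repressor and output genes were measured on both arrays, and their median was -0.74, where 3.49% of all genes measured were higher and 1.08% lower. Dbp, an output transcription factor, had 1.42 in WT tumor cells, against 4.10 in WT no tumor cells, and was 6.43-fold lower. Ciart, a repressor that binds the activator pair, was 4.40-fold lower, Nr1d1 3.69-fold lower, Tef 3.13-fold lower, Nr1d2 2.94-fold lower and Per2 2.37-fold lower. Ciart, Tef and Nr1d2 lie in columns 52-85. Csnk1e, the kinase that marks Per proteins, was 2.26-fold higher by its brightest probe, and another of its probes gave 0.19. The members read by their brightest probe in columns 52-85 numbered 8 and had a median of -0.85, with 3 lower. The list's median was -0.43 with the mean of all probes of a gene and -0.23 when genes were read by any probe in columns 52-85. Of the 5 activators measured, Npas2 was 2.32-fold higher and Arntl 2.03-fold higher. The sources used here do not give the hour at which the lungs were taken, and whether it differed between the groups was not tested. In the Tlr3-deficient pair, Dbp differed by 0.05, Nr1d1 by -0.49 and Ciart by -1.64.

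The activators bind the E-box, whose letters are CACGTG, the same on both strands. The 300 bases around the start of Ciart and Tef are shown because both hold these letters, and both are lower and read in the quieter columns, taken from RefSeq on GRCm38.p6, with the E-box in capitals. Ciart runs at chr3:95882179-95882478 on the minus strand and Tef at chr15:81802423-81802722 on the plus strand. Of 32851 promoters of this length, 2349 (7.15%) hold the letters, and of the 28 promoters kept for 19 clock genes 6 do, belonging to 5 genes. The count for clock genes left out any entry on a chosen chromosome, which the count over all promoters did not. Tef holds the letters at another start too, which is not shown. Besides Ciart and Tef the 5 genes are Per1, Cry1 and Bhlhe41, which were not among the lower genes. No promoter was found for Per2, which was lower. Nr1d2, lower in the same columns, holds none in this window and is not shown. Dbp and Nr1d1 hold none either in this window, which says nothing of sites elsewhere.
Ciart: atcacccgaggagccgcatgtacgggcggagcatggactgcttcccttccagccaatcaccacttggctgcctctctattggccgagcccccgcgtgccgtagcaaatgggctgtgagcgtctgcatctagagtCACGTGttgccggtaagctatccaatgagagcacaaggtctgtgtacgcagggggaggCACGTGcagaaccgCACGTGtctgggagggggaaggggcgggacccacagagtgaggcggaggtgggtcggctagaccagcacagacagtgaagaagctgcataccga
Tef: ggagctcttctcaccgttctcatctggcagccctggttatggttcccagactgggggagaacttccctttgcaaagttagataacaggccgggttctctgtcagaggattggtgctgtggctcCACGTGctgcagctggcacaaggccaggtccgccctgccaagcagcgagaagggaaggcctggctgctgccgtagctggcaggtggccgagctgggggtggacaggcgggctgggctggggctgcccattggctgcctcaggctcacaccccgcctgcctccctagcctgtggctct

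Genes of drug and toxin metabolism were lower in part. Of 20 measured, 5 were lower, next to 1.08% of all genes measured, 0 were higher and the median was -0.51. Of the 5, only Cyp2a22 was read in columns 52-85, where 8 members had a median of -0.57. Cyp1a1, the classic target of the aryl hydrocarbon receptor, had -3.03 in WT tumor cells and 0.02 in WT no tumor cells, 8.29-fold lower. It lies in columns 1-51, and with the local median of its block removed it stood at -2.71. Cyp2a5, Cyp2a4 and Cyp2b10, enzymes that oxidise nicotine and other foreign compounds, were 2.65-fold, 2.50-fold and 2.08-fold lower, and Cyp2a22 was 4.46-fold lower. Cyp2a4 and Cyp2a5 are near-identical copies, and their probes cannot be taken as independent. Genes known to be induced by glucocorticoids had 3 of 16 measured that were lower: Angptl4 by 3.26-fold, Fkbp5 by 2.25-fold and Mt2 by 2.10-fold, with a median of -0.51. Heat shock genes had negative differences in 18 of 20 with a median of -0.61, and 2 passed 2-fold, Hsp90ab1 by 2.23-fold and Hsph1 by 2.13-fold. Neither was read in columns 52-85, where 8 members had a median of -0.46.

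**Figure D5:**
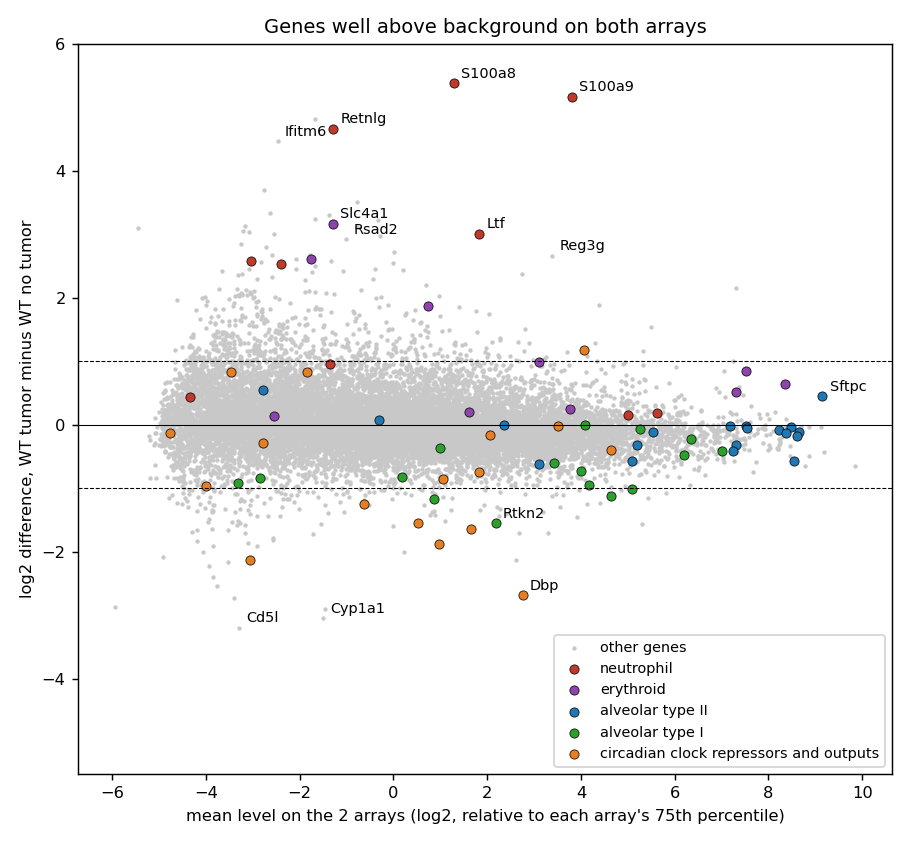
Difference in level between WT tumor and WT no tumor cells against the mean level on the arrays, 1 point for each of the 16052 genes measured on both, with 5 marker lists in colour, 2-fold as dashed lines and some genes named. Type II genes lie at high level near 0, neutrophil genes lie above, and type I and clock genes lie below.

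Matrix lists had negative medians and few genes past 2-fold. Collagen and basement membrane genes had a median of -0.43 over 29 measured, with Col6a2 2.68-fold and Col5a2 2.02-fold lower and 2 positive. Elastic fiber genes had a median of -0.35 over 20, and 3 were lower: Fbln5 by 2.72-fold, Adamtsl2 by 2.70-fold and Lox, the crosslinking enzyme, by 2.25-fold. In the Tlr3-deficient pair, 18 of 30 collagen and basement membrane genes and 9 of 20 elastic fiber genes were lower, where 3.91% of all genes tested were.

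Several functions showed no member past 2-fold in either direction over the members measured. The medians, next to -0.03 over all genes measured, were as follows. For 26 ribosomal protein genes it was -0.14, for 23 genes of mitochondrial respiration -0.15, for 19 of cholesterol synthesis and uptake -0.01, for 25 of junctions -0.12 and for 26 of the cell cycle -0.10. The unfolded protein response had -0.27 over 25 genes, of which 6 were positive.

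Among the other genes of large difference, Acod1, which makes itaconate in activated macrophages, was 8.72-fold higher, and Rbp7, a retinol-binding protein, was 10.1-fold higher in columns 52-85, while Rbp7 differed by -0.67 in the Tlr3-deficient pair. Dhtkd1 was 8.31-fold higher by its brightest probe, and another of its probes gave 0.16. Probes gave opposite signs for Slc18a2, a vesicular amine transporter, at -1.87 and 1.10. They did so too for Tnni1 and Lypd6, whose brightest probes missed the background flag on 1 array, so that their main values are not given. The values of Tnni1 and Lypd6 under other settings, listed at the end, do not settle their direction. Sphk1, which makes a lipid mediator from sphingosine, was 4.40-fold lower, P2ry14, a receptor of UDP-sugars, 5.80-fold, and Cys1, a cilium protein, 7.45-fold. Wfdc17, a small secreted protease inhibitor, had the largest bound, at least 63.0-fold higher. The largest downward bounds, at least 8.93-fold lower for the histone gene H2bc22 and at least 5.89-fold for Olfr19, an odor receptor, were mostly of genes that were dim on the Tlr3-deficient arrays too, 7 of 8. Receptor genes of smell, pheromone and taste, which lung epithelium is not known for, had 26 of 194 tested called higher (13.4%) and 6 lower (3.09%), against 5.53% and 1.59% of all genes, and 22 of the 26 rested on a bound.

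The Tlr3-deficient pair gives side-by-side values and shares no array with this comparison. Of the 15 highest genes measured in WT, 11 were at least 2-fold higher there and 0 lower, and of the 15 lowest, 5 were at least 2-fold lower and 2 at least 2-fold higher. In that pair 820 of 18004 genes (4.55%) were higher and 704 (3.91%) lower. Its array without tumor, labelled female, had Xist at -3.97 and the Y-linked gene Ddx3y at 1.16, against 3.89 and -7.48 on its array with tumor, so the label and the array go against each other. In the WT pair Xist differed by -0.01.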

How the data were processed

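Cy3 signal of 1-colour Agilent arrays (design 014868) was read by Agilent's Feature Extraction program, version 10.7.3.1, as the file headers state. What the authors deposited per array is an intensity on a linear scale, with background removed and spatial trend corrected inside the array, per the file headers, and no scaling across arrays. The authors also deposited a value table in log2 units, for which the sources used here give no method and which served as an alternative. It tracked log2 signal at r = 0.9995 on both arrays but departed widely from it at Cxcl1, Cxcl2, Cxcl12 and Tlr3. The WT difference of Cxcl1 was 10.2 in the value table and 0.13 in the signal, and that of Cxcl2 was 3.89 and 0.96. Probes of Cxcl12 gave 7.24 and 5.71 in the value table, against 0.20 and -0.14 in the signal. Those of Tlr3 gave 6.42 and 7.44, against 0.73 and -0.02.

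Control and outlier-flagged spots were left out, spots of a probe averaged, and log2 signal taken minus the 75th percentile of each array (754 in WT tumor, 525 in WT no tumor). In WT tumor, 65.4% of spots were well above background, and in WT no tumor 61.0%, with 0 saturated. A gene is its brightest probe over the 2 arrays. Of 41174 gene probes, 27668 were named by accession, 5589 by symbol and 459 by synonym in RefSeq's table, and 7458 kept the file's name. A bound sets the brighter level against the dim probe's own level or the lowest level well above background on its array, whichever is higher. No test was run. Named genes are the 15 highest and 15 lowest measured, the 8 largest bounds each way, the 10 highest and lowest in columns 52-85, and list members past 2-fold, or otherwise the extremes and most abundant of a list. Genes named beyond these were chosen after their values were seen: Isg15, Ifit1, Ifit3, Hba-a1, Hbb-bt, Cav2 and the replicated probes short of 2-fold. The members and lists were chosen with earlier results of these data known. The WT tumor array shares a slide with another group and the WT no tumor array lies on a slide of its own, so the groups and their slides cannot be told apart. Versions were Python 3.11.15, numpy 2.4.6, pandas 2.3.3, R 4.3.3 and limma 3.58.1. Some genes that the rule names are not reported here.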

Additional observations from a re-analysis of the deposited data

Results flagged for a closer look

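Among the highest and lowest genes named, Cyp2a22 and 1 probe of Igkv1-117 differed at least 2-fold in both genotypes with opposite sign. Genes of opposite sign but under 2-fold in the Tlr3-deficient pair, such as Rbp7 and Cd5l, are left out here. Cyp2a22 differed by -2.16 in WT and by at least 1.74 in the Tlr3-deficient pair. Igkv1-117, an immunoglobulin segment, differed by -2.87 in WT by a probe that missed the background flag in WT tumor cells, and by at least 6.09 in the Tlr3-deficient pair, and another of its probes gave 2.40 in WT, so its direction in WT is not settled. The difference between the genotypes was not tested for either gene.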

How the results depend on the processing

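Counts of 985 higher and 283 lower genes and the list medians were recomputed under 10 settings and a 3-fold threshold, and under 2 position settings chosen after seeing the data. Main list medians here take all members well above background on at least 1 array, unlike the medians of members measured on both arrays given above. They were 3.90 for neutrophil, 2.09 for NADPH oxidase, 1.43 for secondary and tertiary granule, 1.54 for neutrophil receptor and 0.75 for T and NK cell genes. A list median counts as moved past 0.30 from its main value, the SD of the difference over replicate spots, which is a size limit and not the error of a median. Such values, and called values that changed sign, follow. With normexp background correction at an offset of 50, genes higher numbered 455, genes lower numbered 132, and list medians were neutrophil 1.23, monocyte and dendritic cell 0.21, T and NK cell -0.0969, B and plasma cell 0.23, mast cell, basophil and eosinophil 0.0174, erythroid 0.56, platelet 0.48, neutrophil primary granule 0.12, neutrophil secondary and tertiary granule 0.58, NADPH oxidase and its regulators 0.34, neutrophil receptors 0.86, myeloid lectin and paired receptors 0.45, leukocyte cytoskeleton and signaling 0.46, other chemokines and cytokines 0.16, interleukin-1 family and inflammasome 0.14, type I interferon-stimulated 0.25, circadian clock activators 0.26, and differences turned sign in Lypd6 (0.34). With no filter on dim probes, genes higher numbered 2052, genes lower numbered 831, and list medians were monocyte and dendritic cell 0.85, mast cell, basophil and eosinophil 0.30, neutrophil primary granule 0.28, neutrophil secondary and tertiary granule 0.58, circadian clock activators 0.54. With only genes well above background on both arrays, genes higher numbered 561, genes lower numbered 173, and list medians were neutrophil 2.56, monocyte and dendritic cell 0.45, neutrophil primary granule 0.44, neutrophil secondary and tertiary granule -0.0443, NADPH oxidase and its regulators 0.14, neutrophil receptors 1.01, leukocyte cytoskeleton and signaling 1.32. With only columns 52-85, genes higher numbered 264, genes lower numbered 128, and list medians were club cell -0.11, neutrophil 2.59, erythroid 1.30, endothelial -0.75, neutrophil secondary and tertiary granule -0.0751, NADPH oxidase and its regulators 1.19, neutrophil receptors 2.46, neutrophil attractants and growth factors 1.35, other chemokines and cytokines 0.0802, type I interferon-stimulated 0.30, MHC class II 0.0618, circadian clock repressors and outputs -0.23, and differences turned sign in Aqp4 (-0.0324), Hk1 (-0.63), Il1rn (-1.76), Tnni1 (-0.40). With only columns 1-51, list medians were monocyte and dendritic cell 1.94, neutrophil secondary and tertiary granule 3.12, neutrophil attractants and growth factors 0.20, circadian clock repressors and outputs -0.39, and differences turned sign in Lypd6 (1.39), Slc18a2 (1.10). With only steady blocks, genes higher numbered 401, and list medians were club cell -0.11, neutrophil 3.45, neutrophil primary granule 0.44, neutrophil secondary and tertiary granule 2.43, NADPH oxidase and its regulators 2.40, neutrophil receptors 2.24, other chemokines and cytokines 0.11, type I interferon-stimulated 0.30, and differences turned sign in Hk1 (-0.63). With the mean of all probes of a gene, list medians were neutrophil 3.59, circadian clock repressors and outputs -0.43, and differences turned sign in Il1rn (-1.01), Lypd6 (0.52). With quantile normalization, list medians were T and NK cell 0.44. With the deposited value table, list medians were T and NK cell 0.43, neutrophil attractants and growth factors 1.34. With the local block median subtracted, list medians were B and plasma cell 0.43. With a threshold of 3-fold, genes higher numbered 330, genes lower numbered 83. Higher genes made up 77.7% of calls in the main setting, 65.6% with quantile normalization, 63.3% with median centring, which shifted the all-gene median to -0.15, and 67.3% in columns 52-85. Median centring and outlier-flagged spots kept moved no list median past that limit. List medians also changed sign, near 0 except for the T and NK cell and granule lists above, in 9 of 59 lists with quantile normalization (type II markers among them, at 0.0142), 7 with the value table, 6 with normexp, 5 with columns 1-51, 4 with block medians subtracted, 3 each with median centring, the mean of probes and columns 52-85, and 1 each with no filter, both arrays and steady blocks. The cause was not tested. No paired analysis was possible because each group has 1 array. Slide was not used as a block since each array of the pair lies on a different slide. A signal near background limits dim genes, and the WT no tumor array limits columns 1-51.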
